A study of Mus musculus with 2 samples.

Results

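The genes that drive and restrain the cell division cycle were described in the regenerating liver of mice with reduced miR-182-5p. They are the genes that the authors' annotation places in the KEGG cell cycle pathway, without those it also places in DNA replication or DNA repair pathways and without Cdkn1a, Mdm2, Myc, Aurkb and the E2f, Gadd45, Tgfb and Smad genes. Of 122 listed genes of the pathway, 8 were left out for a replication or repair pathway and 17 by name, and the remaining 97 of 34745 listed genes are the members. Poly(A) RNA of the liver was sequenced from male miR-182-5pKO mice and wild-type (WT) mice, 8 to 10 weeks old, after removal of 70% of the liver (partial hepatectomy, PH) in both groups. The labels call the genotype miRNA-182 KO, and the mice are heterozygous in the study's methods, with the knockout on a single allele. Livers were taken on day 3 after PH, a time that the labels do not give. Each genotype had 1 library, and the sources used here do not say how many mice went into each. The targeted gene, Mir182, was not analysed here, and its level could not be used to check the labels.

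A cell enters the division cycle when D-type cyclins with CDK4 and CDK6, and then E-type cyclins with CDK2, relieve the hold of the pocket proteins (RB1 and its relatives) on E2F target genes. Cyclin A and cyclin B with CDK1 carry the cell through G2 and mitosis, and the anaphase-promoting complex (APC/C), a ubiquitin ligase, ends mitosis by marking cyclin B and securin for destruction. After PH, hepatocytes that were at rest enter this cycle and restore the mass of the liver.

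Libraries of similar depth were compared, 13247497 counts in KO and 13163348 in WT, and the members took 0.124% of them in KO and 0.221% in WT. Mitochondrially encoded genes (13) made up 51.7% of counts in KO and 31.0% in WT, so levels were scaled by TMM, a method that limits the weight of such genes (factors 0.812 for KO and 1.23 for WT). Hepatocyte markers were present in both libraries, and the 6 of them summed to a TMM-scaled CPM (counts relative to the scaled library total) of 49531 in KO and 49893 in WT, a sum that Alb dominates. Their log2 fold changes ran from -2.96 to 0.23, and 1 of them, Apob, was called lower with 1517 counts in KO and 17808 in WT. Among the markers of other cell types, the 8 stellate cell markers summed to 89.7 in KO and 133 in WT, the 6 Kupffer cell markers to 110 and 152, the 6 endothelial markers to 64.9 and 80.1, and the 5 cholangiocyte markers to 164 and 125. Spp1 dominates the cholangiocyte sum, with 1638 of its 1759 counts in KO and 1875 of 2032 in WT. Log2 fold changes of these 5 ran from -0.31 (Sox9) to 2.39 (Krt19). The stellate, Kupffer and endothelial sums were therefore lower in KO along with many of the genes described here, and their part in the results was not tested.

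More of the members were called lower than higher in the KO library, with a share called lower only somewhat above that of all genes. Of the 97 members, 90 had at least 10 counts over both libraries and were tested. A member was called higher or lower when it differed by at least 2-fold and its adjusted p, from an exact binomial test of its 2 counts with adjustment over 13561 genes, was at most 0.05. By this rule 10 members were lower in KO and 4 were higher, or 11.1% and 4.44% of those tested, beside a background of 8.32% lower and 7.97% higher among all genes tested. Most of the 14 calls were thus lower in KO, and 76 members passed in neither direction. Of the 90, 58 lay below 0 on the log2 scale, and the median log2 fold change of KO over WT was -0.14, with quartiles of -0.56 and 0.15, beside a median of 0.00 for all genes tested.

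The test compares 2 libraries, not 2 genotypes, since spread between mice was not measured, and the intervals given here cover counting error only. By the exact test without the 2-fold condition, 29 of the 90 members tested were lower and 15 higher, beside backgrounds of 24.1% and 23.6%. Scaled by total counts, the median of all genes moved to -0.60. Then 32 members were lower and 1 was higher (35.6% and 1.11%), beside backgrounds of 25.0% lower and 3.47% higher. By that scaling 81 of the 90 lay below 0, since 23 of the 32 members above 0 by TMM turned. A coefficient of variation between mice of 0.2 was then assumed in edgeR's exact test. The calls were Cdk1, Cdc20, Rbl1 and Cdkn2d lower and Smc1b higher. These 4 and 1 were 4.44% and 1.11% of members, beside 3.27% and 3.60% of all genes. With an assumed coefficient of 0.4 none was called, beside 0.428% lower and 0.435% higher, and 1 member in each direction had an unadjusted p under 0.05.

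**Figure D1:**
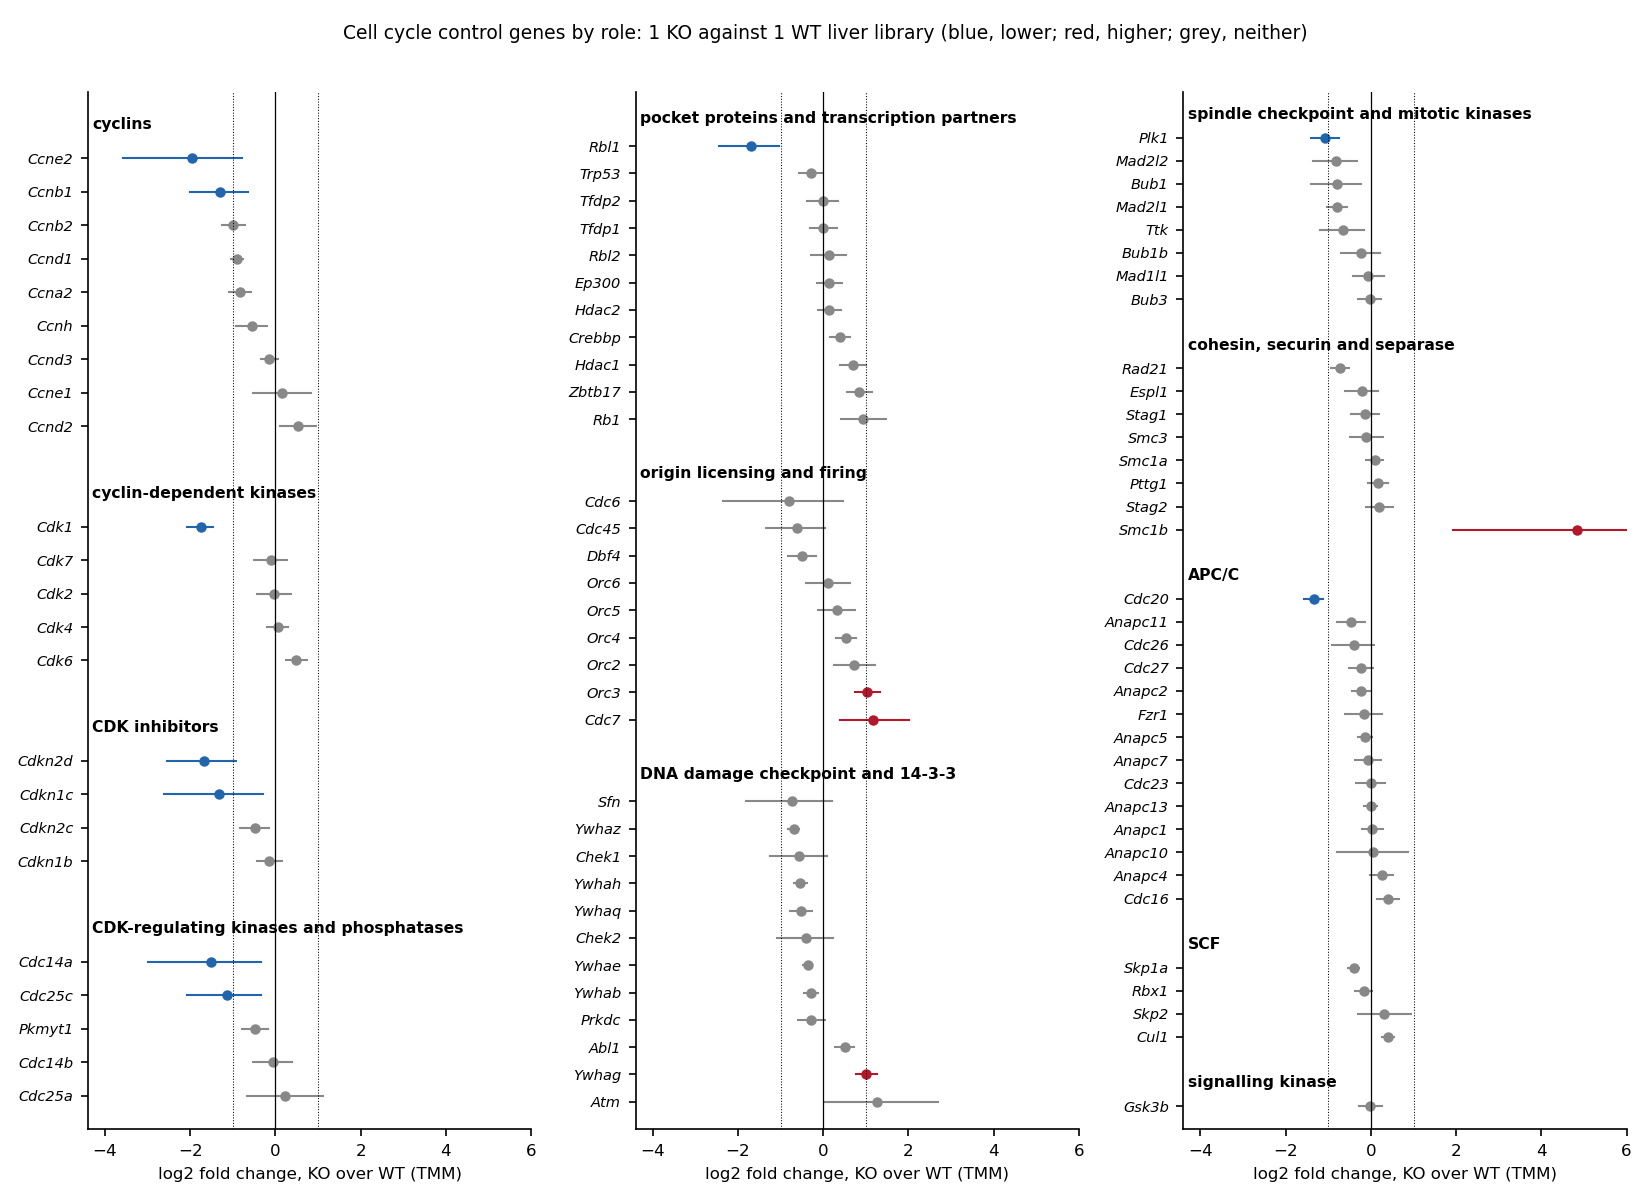
Log2 fold change of KO over WT (horizontal axis) of the 90 tested genes, grouped by role, with points for the TMM-scaled estimate and lines for the exact 95% counting interval, which for Smc1b runs past the right edge. Dotted lines mark 2-fold, and blue points (10) and red points (4) are the genes called lower and higher.

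Levels per transcript length were compared within each library by FPKM, a count divided by transcript length and library total. Ywhae, a 14-3-3 gene, had the highest FPKM of all members in both libraries, at 28.5 in KO and 55.9 in WT. Cyclin D1 (Ccnd1) had the fourth highest level in WT at 26.8 FPKM and the sixth in KO at 9.49 FPKM. Cdc20 stood next to it in WT at 26.5 FPKM and was in rank 11 in KO at 6.90 FPKM. Cdk1 moved furthest down among these, from rank 16 in WT at 8.19 FPKM to rank 39 in KO at 1.60 FPKM. The FPKM were scaled to total counts by the authors, so ranks within a library can be read without regard to scaling but the fall in FPKM between libraries cannot.

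**Figure D2:**
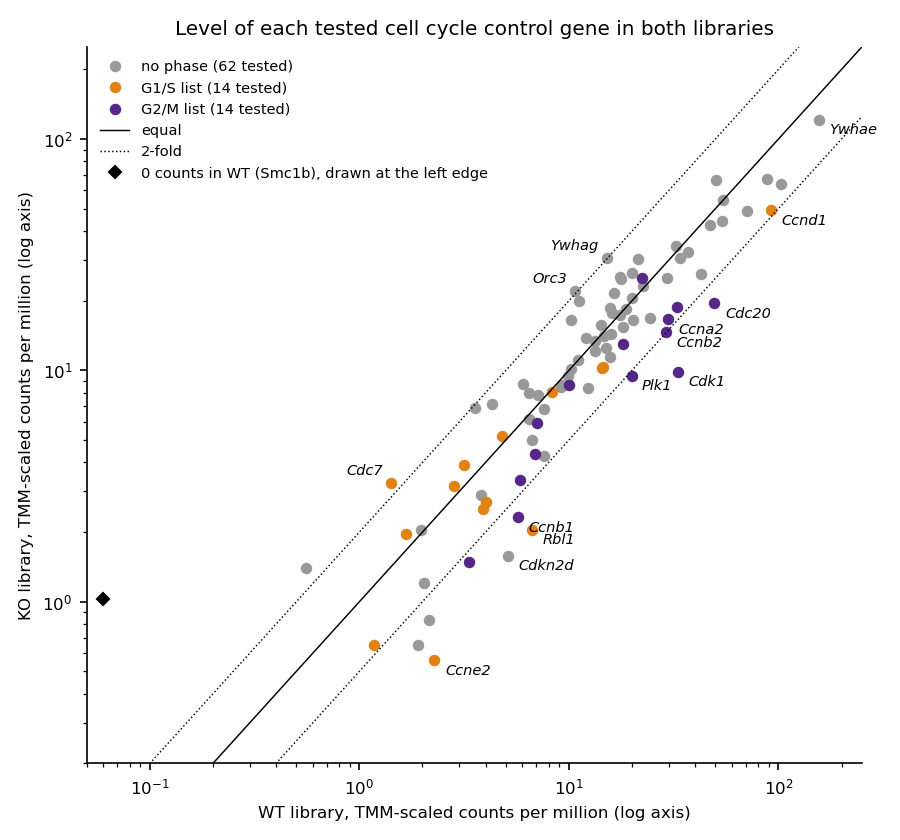
TMM-scaled CPM of the tested genes in the WT library (horizontal, log axis) and the KO library (vertical, log axis), with the solid line at equal levels and dotted lines at 2-fold. Purple points (G2/M list) lie mostly below the solid line, with Cdk1 at 33.3 in WT and 9.86 in KO, while grey points lie on both sides.

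Genes of the late cycle lay below 0 almost throughout, and genes of the early cycle were more mixed. Members were assigned to a G1/S list (15 genes, 14 tested) and a G2/M list (14 genes, all tested) by textbook knowledge of when their transcripts peak, and 68 were given no phase. These lists were chosen with earlier results of these data known. Among all genes tested, 8.32% were called lower and 7.97% higher. Of the G2/M list, 5 genes were called lower (35.7%) and 0 higher, 13 of 14 lay below 0, and the median log2 fold change was -0.82. By the exact test alone 11 of these 14 were lower and 0 higher, beside 24.1% and 23.6% of all genes. Of the G1/S list, 2 genes were called lower (14.3%) and 1 higher (7.14%), 9 of 14 lay below 0, and the median was -0.49. Of the 62 tested members with no phase, 3 were called lower and 3 higher (4.84% each), and their median was -0.04. The G2/M median was 0.32 below the G1/S median, a log2 difference on which a common scaling factor has almost no effect, and 0.53 below it by FPKM with a pseudocount of 0.1. The difference between the lists was not tested. The lists were also read without genes that share at least 10% of their 51-base words with another gene or overlap an antisense gene over at least 10% of their exon bases. Of the G2/M list 10 genes were left, with 9 below 0, a median of -0.72 and 2 called lower (Cdk1 and Plk1), since Cdc20, Ccnb1 and Cdc25c pass one of these limits. Of the G1/S list 12 were left, with 7 below 0, a median of -0.26, 1 called lower and 1 called higher.

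The same shift was seen in plain counts, to which no scaling applies. The G2/M list held 1647 of the members' 16479 counts in KO, 9.99% (exact 95% interval 9.54% to 10.5%), and 4430 of 29131 in WT, 15.2% (14.8% to 15.6%). The G1/S list held 6.77% in KO (6.39% to 7.17%) and 8.97% in WT (8.65% to 9.31%). Ccnd1 alone held 529 of the 1116 G1/S counts in KO and 1487 of the 2614 in WT. The shift of the G1/S share therefore rests largely on this 1 gene, which overlaps an antisense gene. In bulk tissue, fewer cycling cells and less of each transcript per cycling cell cannot be told apart. Of 7 proliferation genes that the KEGG rule did not take, 3 were called lower and 0 higher, beside 8.32% and 7.97% of all genes. Their median was -0.86. The lowest was Rrm2, a subunit of ribonucleotide reductase, with 72 counts in KO and 302 in WT (log2 fold change -1.47). The highest was Tk1, thymidine kinase, with 137 and 263 (-0.35). Mki67, the Ki-67 antigen, had 973 counts in KO and 1989 in WT (-0.44).

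**Figure D3:**
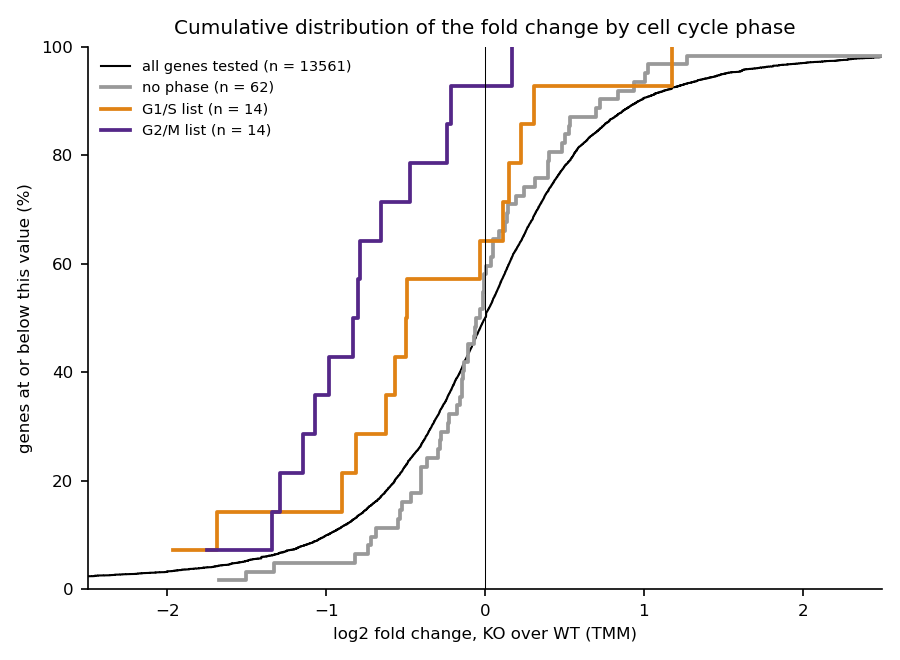
Cumulative share of genes (vertical, %) at or below each log2 fold change of KO over WT (horizontal, TMM-scaled) for all 13561 genes tested, the 14 genes of the G2/M list, the 14 of the G1/S list and the 62 members with no phase. The G2/M curve lies furthest left, with a median of -0.82, and the curve of members with no phase lies close to that of all genes around 0.

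The promoters of both lists were searched for the elements known from such genes. Many mitotic promoters carry the cell cycle genes homology region (CHR), a short element bound by the MuvB core of the DREAM complex, beside CCAAT boxes, which NF-Y binds, and many G1/S promoters carry sites of E2F factors. In RefSeq windows of 300 bases (250 before the transcription start and 50 from it onwards, GRCm38.p6), 102 windows of 80 members were searched on both strands for the CHR words TTTGAA and TTTAAA, for the E2F words TTTCGCGC and TTTGGCGC and TTTCCCGC, and for CCAAT. A CHR word was found in 8 of 11 G2/M windows (72.7%), in 6 of 16 G1/S windows (37.5%), in 21.3% of windows of members with no phase and in 27.6% of all 32851 promoter windows. CCAAT was found in 9 of 11 G2/M windows (81.8%), in 43.8% of the G1/S windows, in 42.7% of the windows with no phase and in 37.4% of all windows. All 8 G2/M windows with a CHR word held CCAAT as well. Both words were not confined to genes called lower. Genes not called with both were, for example, Bub3 (log2 fold change -0.03) and Cdkn1b (-0.15) of no phase and Espl1 (-0.22) of the G2/M list. An E2F word was found in 5 of 16 G1/S windows (31.2%), in 1 of 11 G2/M windows (9.09%), in 10.7% of the windows with no phase and in 1.84% of all windows. The lists were drawn up from the timing of these genes, for which such elements are known, and windows of 1 gene can overlap, so the shares are descriptions, and a match does not show that a factor binds.

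Windows are printed 5′ to 3′ on the gene's strand for the 4 G2/M genes called lower that have one, Cdk1, Cdc20, Ccnb1 and Plk1, and for Rbl1, the G1/S gene called lower that has one. Capitals mark the CHR, E2F and CCAAT words on either strand, and no matches overlapped. The window of Cdk1 is chr10:69352863-69353162 (minus strand), that of Cdc20 chr4:118437294-118437593 (minus), that of Ccnb1 chr13:100786437-100786736 (minus), that of Plk1 chr7:122159185-122159484 (plus) and that of Rbl1 chr2:157204485-157204784 (minus).
Cdk1: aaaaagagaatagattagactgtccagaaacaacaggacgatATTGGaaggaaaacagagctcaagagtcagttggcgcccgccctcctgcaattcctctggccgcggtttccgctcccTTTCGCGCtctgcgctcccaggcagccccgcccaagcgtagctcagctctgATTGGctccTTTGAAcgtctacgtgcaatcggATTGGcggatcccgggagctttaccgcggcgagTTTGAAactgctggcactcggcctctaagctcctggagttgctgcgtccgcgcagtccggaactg
Cdc20: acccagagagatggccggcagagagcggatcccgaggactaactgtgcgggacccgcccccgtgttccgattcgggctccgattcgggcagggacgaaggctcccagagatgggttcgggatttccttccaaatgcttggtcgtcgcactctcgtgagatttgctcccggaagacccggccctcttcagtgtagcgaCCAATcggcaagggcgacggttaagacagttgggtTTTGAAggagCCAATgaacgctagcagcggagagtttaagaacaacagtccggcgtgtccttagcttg
Ccnb1: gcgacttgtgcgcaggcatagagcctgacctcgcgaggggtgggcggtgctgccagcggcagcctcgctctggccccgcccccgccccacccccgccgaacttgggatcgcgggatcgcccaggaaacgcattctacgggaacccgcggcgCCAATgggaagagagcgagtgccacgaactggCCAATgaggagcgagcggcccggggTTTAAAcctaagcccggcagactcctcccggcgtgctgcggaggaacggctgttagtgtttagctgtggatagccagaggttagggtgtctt
Plk1: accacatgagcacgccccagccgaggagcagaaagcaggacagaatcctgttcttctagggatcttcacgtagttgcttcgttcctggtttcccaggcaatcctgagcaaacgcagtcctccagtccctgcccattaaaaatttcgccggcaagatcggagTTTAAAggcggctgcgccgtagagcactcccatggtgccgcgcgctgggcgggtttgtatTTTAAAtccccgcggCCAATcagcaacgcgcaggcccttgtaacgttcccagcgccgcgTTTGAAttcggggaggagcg
Rbl1: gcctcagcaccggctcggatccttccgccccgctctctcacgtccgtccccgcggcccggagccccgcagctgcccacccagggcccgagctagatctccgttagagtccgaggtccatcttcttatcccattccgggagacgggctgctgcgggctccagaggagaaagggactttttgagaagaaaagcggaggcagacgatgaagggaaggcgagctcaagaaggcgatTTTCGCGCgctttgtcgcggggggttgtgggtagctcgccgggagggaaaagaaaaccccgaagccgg
In the Cdk1 window the CHR words begin 71 and 15 bases before the start, with CCAAT on the opposite strand 208, 80 and 48 bases before it and an E2F word 131 bases before it. In Cdc20 a CHR word begins 18 bases before the start, between CCAAT boxes 53 and 8 bases before it. In Ccnb1 the CHR word begins 42 bases before the start and the CCAAT boxes 99 and 67 bases before it. The Plk1 window holds 3 CHR words, the nearest upstream of the start 29 bases before it, and 1 CCAAT box 14 bases before it. The Rbl1 window holds an E2F word 18 bases before the start and neither of the other words.

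**Figure D4:**
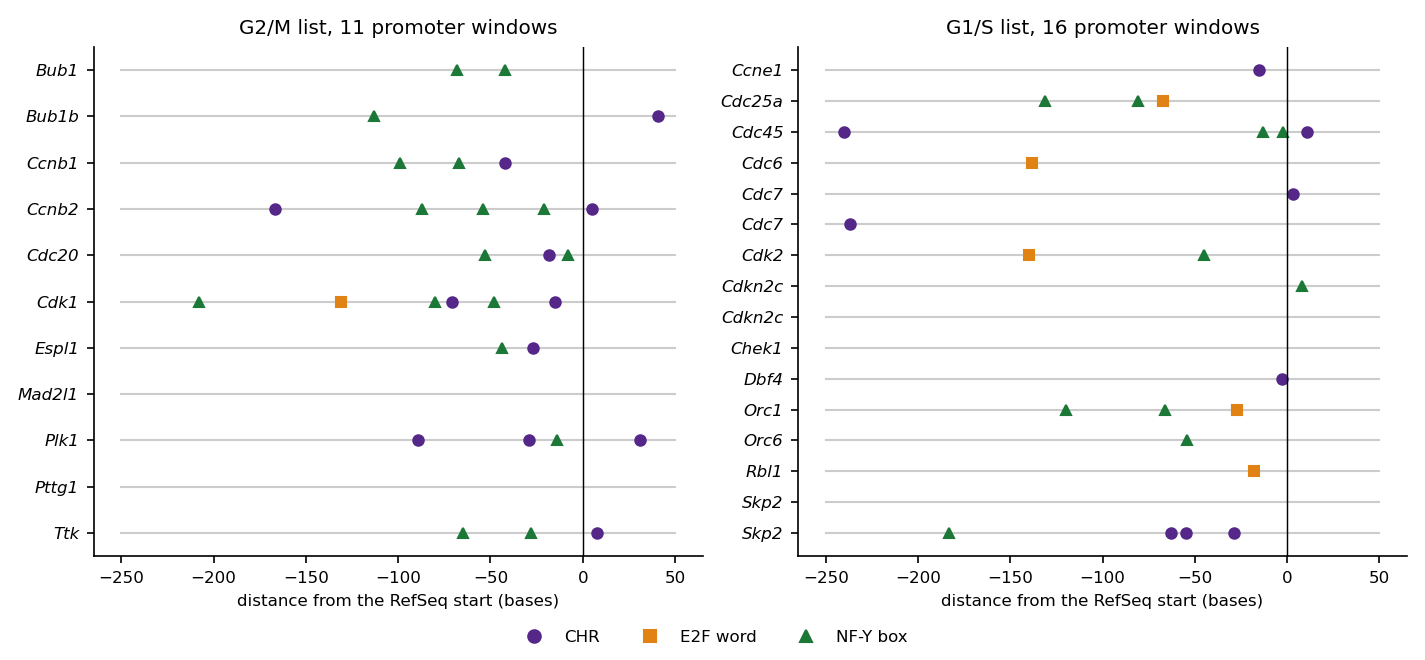
Positions of CHR words (circles), E2F words (squares) and CCAAT boxes (triangles, labelled as the NF-Y box) relative to the RefSeq transcription start (0) in the 11 windows of the G2/M list (left) and the 16 of the G1/S list (right), 1 grey line per window. Circles and triangles occur together in 8 of the 11 G2/M windows, and squares occur in 5 of the 16 G1/S windows and 1 G2/M window.

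Cyclins, the regulatory partners of the CDKs, had a median log2 fold change of -0.83 over 9 tested genes. Of these 9, 2 were called lower, Ccne2 and Ccnb1, and 0 higher. For this role and those that follow, the shares called among all genes tested are 8.32% lower and 7.97% higher. Ccnd1, the D-type cyclin that links growth signals to cell cycle entry, had 529 counts in KO and 1487 in WT. It was 1.86-fold lower in KO (log2 fold change -0.90, interval -1.04 to -0.75, adjusted p = 3.36e-36, exact binomial test), past the test but under 2-fold. Its exons overlap an antisense gene (LTO1) over 23.4% of their bases, and the strand setting of the counting is not given in the sources used here. Of the 97 members, 13 overlap an antisense gene over at least 10% of their exon bases, and their counts may include reads of it. Among them are Ccnd1, Ccna2, Ccne2, Cdk4, Cdkn1c, Cdc25c, Orc2, Rb1 and Rbl2.

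The other D-type cyclins did not share this value. Ccnd2 had 94 counts in KO and 98 in WT (log2 fold change 0.53, adjusted p = 0.0277 by the exact test, under 2-fold). This value turned to -0.07 when scaled by total counts. Ccnd3 had 329 and 547 counts (-0.14, adjusted p = 0.259, exact test). Ccnd1 therefore made up 55.6% of all D-type cyclin counts in KO (exact interval 52.3% to 58.8%) and 69.7% in WT (67.7% to 71.7%).

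E-type cyclins, the partners of CDK2 at the start of S phase, were scarce. Ccne2 had 6 counts in KO and 37 in WT and was 3.90-fold lower (log2 fold change -1.96, interval -3.57 to -0.78, adjusted p = 0.00100, exact test), with 17.4% of its exon bases in antisense overlap with Ints8. Ccne1 had 34 and 46 counts (0.15, interval -0.53 to 0.83), and -0.44 when scaled by total counts. Its share of the E-type counts was 85.0% in KO (70.2% to 94.3%) and 55.4% in WT (44.1% to 66.3%), so the intervals did not overlap.

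The mitotic cyclins Ccna2, Ccnb2 and Ccnb1 were all lower by the exact test. Ccna2, cyclin A2, had 179 counts in KO and 481 in WT and was 1.78-fold lower (log2 fold change -0.83, interval -1.09 to -0.58, adjusted p = 7.55e-11, exact test). Ccnb2, a B-type cyclin, had 157 and 469 counts, a 1.98-fold difference just under the 2-fold limit (-0.98, interval -1.26 to -0.72). Ccnb1, the cyclin that brings CDK1 to mitotic activity, had 25 and 93 counts and was 2.44-fold lower (-1.29, interval -2.00 to -0.65, adjusted p = 8.71e-05, exact test). Of the 51-base words of its transcript 41.9% also occur in pseudogenes (Ccnb1-ps, Gm12856 and Gm8416, not analysed here), so its count is uncertain. Its share of the B-type counts was 13.7% in KO (9.09% to 19.6%) and 16.5% in WT (13.6% to 19.9%), with overlapping intervals. Ccnh, the cyclin of the CDK-activating kinase, had 90 and 199 counts (-0.55, adjusted p = 0.00725, exact test, under 2-fold). Ccna1 and Ccnb3, cyclins of germ cells, had no count in either library.

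Among the CDKs, the catalytic subunits, Cdk1 stood apart from the other members. Cdk1, the mitotic kinase, had 106 counts in KO and 540 in WT (TMM-scaled CPM of 9.86 and 33.3). It was 3.37-fold lower in KO (log2 fold change -1.75, interval -2.07 to -1.45, adjusted p = 1.20e-36, exact test). Cdk1 (ENSMUSG00000019942) lies at chr10:69336635-69352938 in the authors' table (GRCm38 coordinates).

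The other CDKs lay nearer to 0. Cdk2 had 87 counts in KO and 134 in WT (log2 fold change -0.03, interval -0.44 to 0.37), and Cdk4 had 250 and 364 (0.05, interval -0.19 to 0.29, but -0.55 by total counts and -0.04 by total counts without mitochondrial genes). Cdk6 had 266 and 286 counts (0.49, adjusted p = 0.000347, exact test, under 2-fold, but -0.11 by total counts). Cdk7, the kinase of the CDK-activating complex, had 93 and 151 (-0.11, interval -0.50 to 0.28). Cdk1 took 13.2% of all CDK counts in KO (10.9% to 15.8%) and 36.6% in WT (34.1% to 39.1%).

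CDK inhibitors restrain the kinases, and those among the members, without Cdkn1a, were not higher in KO where they could be tested. Of 4 tested inhibitor genes 2 were called lower and 0 higher, and all 4 lay below 0, with a median of -0.91. Cdkn2d (p19INK4d), an inhibitor of CDK4 and CDK6, had 17 counts in KO and 83 in WT and was 3.19-fold lower (log2 fold change -1.67, interval -2.54 to -0.93, adjusted p = 5.71e-06, exact test). Cdkn1c (p57KIP2) had 9 and 35 counts (-1.33, interval -2.61 to -0.28, adjusted p = 0.0202, exact test), and 30.7% of its exon bases lie antisense to Gm44732. Cdkn1b (p27KIP1), an inhibitor of CDK2, had 154 and 257 (-0.15, interval -0.44 to 0.15). Cdkn2a and Cdkn2b, which have roles in senescence, had at most 2 counts in a library and were not tested.

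The kinases and phosphatases that act on CDKs or on CDK substrates held 2 of the calls. Cdc25c, a phosphatase that activates CDK1 at mitotic entry, had 16 counts in KO and 54 in WT (log2 fold change -1.14, interval -2.07 to -0.34, adjusted p = 0.00880, exact test). Cdc14a, a phosphatase, had 7 and 31 (-1.50, interval -2.98 to -0.34, adjusted p = 0.0179, exact test). Cdc25a, the activator of CDK2, had 21 and 27 counts (0.23, interval -0.67 to 1.11, and -0.36 by total counts), the highest value of the 5 tested. Wee1, which holds CDK1 inactive, had 0 counts in KO and 1 in WT, and Wee2, a relative of the oocyte, had 0 in both.

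Pocket proteins and their transcription partners differed in direction. Rbl1 (p107), whose gene is itself an E2F target, had 22 counts in KO and 108 in WT and was 3.22-fold lower (log2 fold change -1.69, interval -2.44 to -1.03, adjusted p = 1.66e-07, exact test). Rb1, the retinoblastoma protein, had 74 counts in KO and 58 in WT (0.94, interval 0.43 to 1.47, adjusted p = 0.000859, exact test), which is 1.91-fold higher and under the 2-fold limit. It was the highest of the 11 tested genes of this role, of which 1 was called lower and 0 higher (median 0.14). Rbl1 made up 12.2% of the pocket protein counts in KO (7.82% to 17.9%) and 38.3% in WT (32.6% to 44.2%), with Rb1 and Rbl2 holding the rest.

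Origin licensing and firing was the role with the highest median, 0.32 over 9 tested genes, of which 2 were called higher and 0 lower. Cdc7, the kinase that fires origins together with its activator Dbf4, had 35 counts in KO and 23 in WT and was 2.26-fold higher (log2 fold change 1.18, interval 0.40 to 2.02, adjusted p = 0.00540, exact test). Orc3, a subunit of the origin recognition complex, had 236 and 174 counts and was 2.04-fold higher (1.03, interval 0.74 to 1.32, adjusted p = 6.63e-12, exact test). By total counts these values were 0.59 for Cdc7 and 0.43 for Orc3, under the 2-fold limit. Orc2, Orc3, Orc4 and Orc5 lay between 0.32 and 1.03, but Orc4 turned to -0.066 and Orc5 to -0.28 by total counts, and the median of the role turned to -0.28. Of the exon bases of Orc2, 29.8% lie antisense to Nif3l1.

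Members of the role whose transcripts peak at G1/S had values below those of Orc2 to Orc5, apart from Cdc7. Among them Orc6, with 56 and 78 counts, lay above 0 (0.11, interval -0.41 to 0.63). Orc1 had 0 counts in KO and 7 in WT and was not tested. It was 1.55-fold lower with the KO count set to a floor of 3 counts per library, which is not a bound. Orc1 and Orc6 together took 7.70% of the complex's counts in KO (5.87% to 9.89%) and 11.9% in WT (9.59% to 14.5%), with intervals that overlapped. Cdc6, the licensing factor that loads the helicase, had 7 and 19 counts (-0.81, interval -2.34 to 0.46), the lowest value of the role and within counting error of 0.

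The DNA damage checkpoint and the 14-3-3 genes gave 1 call among 12 tested, with a median of -0.39 and 9 genes below 0. Ywhag (14-3-3 gamma), of a family whose members bind CDC25 phosphatases and keep them in the cytoplasm, had 329 counts in KO and 246 in WT and was 2.01-fold higher (log2 fold change 1.01, interval 0.77 to 1.26, adjusted p = 8.99e-16, exact test), and 0.41 on the log2 scale by total counts. The other 5 Ywha genes all lay below 0, and the lowest of them, Ywhaz, was at -0.69. Ywhaz shares 19.8% of its 51-base words with a pseudogene and Ywhaq 33.8% with other genes, so their counts are uncertain. Ywhag took 9.40% of the counts of the 6 Ywha genes, without Sfn, in KO (8.45% to 10.4%) and 3.58% in WT (3.16% to 4.05%). Atm, the kinase that senses double-strand breaks, had 15 and 9 counts (1.27, interval 0.04 to 2.70, adjusted p = 0.0695, exact test) and did not pass. Sfn (14-3-3 sigma) had 13 and 33 (-0.73, interval -1.80 to 0.21).

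Spindle checkpoint genes and mitotic kinases were all below 0, 8 of 8 tested, with a median of -0.72, 1 call lower and 0 higher. Plk1, the polo-like kinase of mitotic entry and spindle assembly, had 102 counts in KO and 323 in WT and was 2.10-fold lower (log2 fold change -1.07, interval -1.41 to -0.75, adjusted p = 5.12e-11, exact test). By the exact test alone 5 of the 8 were lower, beside 24.1% of all genes. Bub3, a checkpoint protein, had 198 and 305 counts (-0.03, interval -0.30 to 0.23), the value nearest to 0 in the group.

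The ring that holds sister chromatids together and the proteins that open it gave 1 call in 8 tested genes. Smc1b, a cohesin subunit of meiosis, had 11 counts in KO and 0 in WT (adjusted p = 0.000171, exact test). It was 5.53-fold higher with the WT count set to the floor of 3 counts. Its exact interval began at a log2 fold change of 1.92. Rad21, the cohesin subunit that separase cleaves, had 280 counts in KO and 696 in WT (log2 fold change -0.72, interval -0.93 to -0.52, adjusted p = 4.04e-12, exact test), a 1.65-fold difference and the lowest of the role. Rad21 took 27.4% of the counts of the 5 mitotic cohesin genes in KO (24.7% to 30.3%) and 39.1% in WT (36.8% to 41.4%).

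Cdc20 was the 1 gene called among 14 of the APC/C. Cdc20, which brings mitotic substrates to the APC/C, had 210 counts in KO and 803 in WT and was 2.53-fold lower (log2 fold change -1.34, interval -1.57 to -1.12, adjusted p = 4.34e-37, exact test). The 12 core subunits, with neither Cdc20 nor the other coactivator Fzr1, lay between -0.46 and 0.40 with a median of -0.04, and 0 were called in either direction. Cdc16, the highest of them, had 232 and 265 counts (0.40, adjusted p = 0.00609, exact test, under 2-fold, and -0.20 by total counts). Cdc20 made up 74.2% of the coactivator counts in KO (68.7% to 79.2%) and 86.7% in WT (84.4% to 88.8%). Its transcript shares 10.9% of its 51-base words with the pseudogene Gm7856, not analysed here.

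The SCF ubiquitin ligase, which acts at G1/S, gave no call among 4 tested genes. Cul1, its scaffold, had 713 counts in KO and 813 in WT (log2 fold change 0.40, interval 0.26 to 0.55, and -0.20 by total counts), and Skp1a, its adaptor, had 720 and 1433 (-0.40, interval -0.53 to -0.27). Gsk3b, a kinase that marks cyclin D1 for export and destruction, had 187 and 285 (-0.02, interval -0.29 to 0.26).

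**Figure D5:**
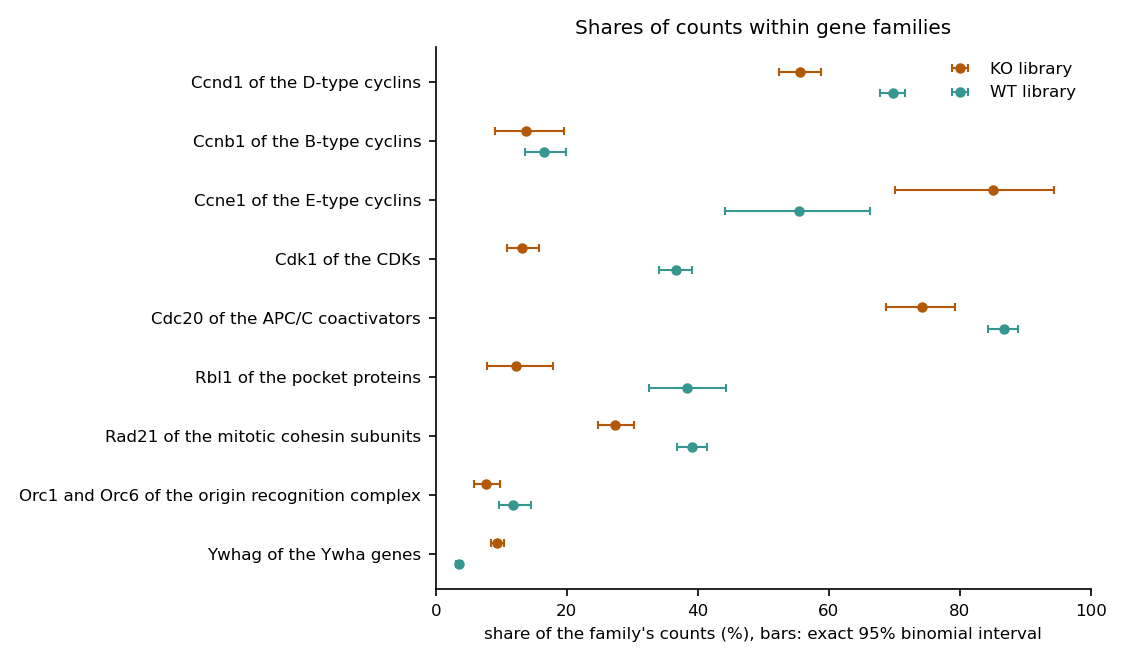
Share of a family's counts (horizontal, %) taken by the named gene or genes in the KO and WT libraries, with exact 95% binomial intervals. The share of Cdk1 among CDKs is 13.2% in KO and 36.6% in WT, and the intervals overlap only for Ccnb1 among the B-type cyclins and for Orc1 and Orc6 among the origin recognition complex.

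Sites of miR-182-5p itself were sought in the members, since a microRNA represses transcripts that pair with its seed, bases 2 to 8. The mature sequence, from RefSeq at chr6:30165962-30165986 (minus strand, GRCm38.p6), is printed with its seed in capitals, above 30 bases around the 8-base seed match TTGCCAAA (capitals) in the longest annotated 3′ UTR of 4 members.
mmu-miR-182-5p: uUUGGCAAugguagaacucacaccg
Ywhag: ctttgacatttTTGCCAAAataccactagt
Orc5: tctgctggctcTTGCCAAAgcagatttcct
Ccnd3: aaccttctcagTTGCCAAAacgccccagta
Rbx1: aagaaaccctgTTGCCAAAaaaacaaaaac
The site of Ywhag is at chr5:135910831-135910838 (minus strand), that of Orc5 at chr5:22486743-22486750 (minus), that of Ccnd3 at chr17:47599113-47599120 (plus) and that of Rbx1 at chr15:81476088-81476095 (plus). Anapc4 is the remaining member counted with the match and has it only in a transcript annotated for nonsense-mediated decay. The match was found in 5 of 90 members tested (5.56%) and in 690 of 12541 tested genes with a 3′ UTR (5.50%), so the members held it about as often as other genes.

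The genes counted with a site lay on both sides of 0. Ywhag was called higher in KO, as given above, and Orc5 had 86 counts in KO and 104 in WT (log2 fold change 0.32, adjusted p = 0.221, exact test). Anapc4, an APC/C subunit, had 201 and 255 (0.25, adjusted p = 0.124, exact test). Ccnd3 lay at -0.14, and Rbx1, the RING subunit of the SCF ligase, had 351 and 597 counts (-0.17, adjusted p = 0.130, exact test). Of the 5 genes, 3 lay above 0 and 2 below, and 4 did not pass the test. By total counts 1 of the 5 (Ywhag) lay above 0 and 4 below, with Orc5 at -0.28 and Anapc4 at -0.35.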

How the data were processed

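The deposited table gives raw counts of reads on each gene and FPKM values that the authors derived from these counts. The submitters' processing notes name HISAT2 2.0.4, StringTie, edgeR and hg38, a human build, while the identifiers and coordinates are those of mouse: all 97 members are in GENCODE M21 (GRCm38), 77 with identical coordinates. Count divided by FPKM changed from one library to the other by a factor of 1.006 to 1.007, as total counts did (1.006), so the FPKM are scaled by total counts.

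The software was edgeR 4.0.16 (TMM scaling), DESeq2 1.42.0 (size factors as an alternative), R 4.3.3 and Python 3.11.15. A gene was tested if the libraries held 10 or more of its counts in sum. Log2 fold changes used TMM-scaled values and a prior count of 0.5. An exact binomial test (two-sided) set each KO count against the share that the scaled totals predict, with Benjamini-Hochberg adjustment over the 13561 genes tested. Intervals are exact 95% Clopper-Pearson intervals and cover counting error only. The floor of 3 counts replaced lower counts in the folds given for Smc1b and Orc1, and it gives no bound. With 1 library per genotype nothing was replicated. The steps were tested on simulated data.

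The members, gene lists and tests were chosen with earlier results of these data known, and the shares within families and of the phase lists, and the lists without copies or antisense overlap, after the counts had been seen. Named genes are all tested cyclins and CDKs, every gene called, and the highest and lowest tested gene of each role; any other gene named was chosen after its values were seen. Promoter windows and the microRNA are from RefSeq (GRCm38.p6), and 3′ UTRs from GENCODE M21. Alternatives were other scalings, prior counts, count minimums, tests and FPKM with a pseudocount of 0.1.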

Additional observations from a re-analysis of the deposited data

How the results depend on the processing

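No paired analysis was possible because there is 1 library for KO and 1 for WT. With DESeq2's size factors and with upper-quartile scaling the counts of members called (4 higher, 10 lower) did not change. Scaled by total counts, 1 member was higher and 32 were lower, and the medians were -0.74 for the members, -1.09 for the G1/S list and -1.41 for the G2/M list. By FPKM, which is scaled by total counts too, 1 member was higher and 26 were lower by fold alone (1.11% and 28.9% of members, beside 2.99% and 21.6% of all genes), and the medians were -0.69 for the members and -1.36 for the G2/M list, with a G2/M minus G1/S difference of -0.53. Without the mitochondrial genes in the totals, 2 members were higher (Cdc7 and Smc1b) and 11 lower (2.22% and 12.2% of members, beside 7.03% and 9.60% of all genes). With an assumed coefficient of variation of 0.2 in edgeR's exact test, 1 was higher and 4 were lower, and with 0.4, 0 were higher and 0 lower, with a smallest adjusted p of 0.269 and 1 member in each direction at an unadjusted p under 0.05. The remaining alternatives (a prior count of 5, at least 1 or 50 counts, fold alone, a coefficient of 0.1) gave 3 to 5 higher and 7 to 10 lower.

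Of 32 members above 0, 23 turned below 0 under total counts. Among the genes named by the rule these were -0.069 for Ccnd2, -0.44 for Ccne1, -0.20 for Cdc16, -0.36 for Cdc25a, -0.55 for Cdk4, -0.11 for Cdk6 and -0.20 for Cul1. By FPKM the same genes gave -0.059, -0.40, -0.20, -0.24, -0.54, -0.11 and -0.20. Cdk4 was at -0.037 without the mitochondrial genes. Genes with fewer than about 50 counts, such as Ccne2, Cdc14a and Cdkn1c, have intervals wider than 1 log2 unit. Some genes with more counts do as well. Among those called lower are Ccnb1, with 25 counts in KO and 93 in WT (-2.00 to -0.65), and Rbl1, with 22 and 108 (-2.44 to -1.03).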
